A study of Drosophila melanogaster with 5 samples.

Results

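Antioxidant genes were followed in whole adult female Drosophila melanogaster that lacked the insulin-producing cells (IPCs), neurosecretory cells of the brain that release insulin-like peptides. The members were 10 genes matched by annotated symbol: Sod1, Sod2, Sod3, Cat, Prx2, Prx3, Prx6c, Trx2, Trxr1 and Keap1. Of these, 8 had a value, among 10124 genes with one in all. No probe was listed for Sod1 or Prx2, which were not analysed here. Keap1 is a regulator and not an enzyme, and Trx2 is a small redox protein that other enzymes use, so the group is one of antioxidant defence rather than of enzymes alone.

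The IPC-deficient flies carried the InsP3-Gal4 driver with UAS-RPR/HID, which expresses the cell death genes reaper and hid in the cells where the driver is active. The control flies carried the same driver with UAS-LacZ. All were females aged 14 days, kept on yeast paste as their sole food for the last 48 h. Total RNA of both genotypes was hybridised together on 5 two-colour arrays from 2 biological repeats, with IPC-deficient RNA in Cy5 on 2 arrays and in Cy3 on 3. How many flies were behind each RNA sample is not given in the material analysed.

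Superoxide dismutases turn superoxide, a by-product of respiration, into hydrogen peroxide. Catalase and the peroxiredoxins then remove the peroxide. Many peroxiredoxins, but not all, are recharged by thioredoxin, which thioredoxin reductase keeps reduced with NADPH. Drosophila lacks a glutathione reductase, so in this insect the thioredoxin system also keeps glutathione reduced. Many of these defences are under the transcription factor CncC, which Keap1 holds inactive until oxidants or electrophiles release it. Loss of the IPCs or of insulin signalling is known in flies to lengthen life and to raise resistance to oxidative stress.

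The deposited table held a single value per probe, the authors' signed fold change over all hybridisations, repeated in every array column in which the probe had a value. There was therefore no spread between arrays or flies, and no test of any difference was possible. The error given below is the SD between probes of different value for the same gene, pooled over 647 genes with 1437 probes measured on all 5 arrays. It was 0.18 on the log2 scale, a 1.13-fold difference, and it covers differences between probes but not between flies. Which RNA was the numerator is not stated. A positive value is read here as higher in IPC-deficient flies, which is likely because the design names those flies first. The gene tobi, named as a target of brain insulin, had a log2 fold of -4.10. Its name does not say whether insulin raises or lowers it. Whether the name came from these same data is not given here, so tobi is not taken as independent support. If the numerator were the control, every direction below would be the opposite.

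None of the 8 measured genes reached 1.5-fold in either direction. Over all 10124 genes, 5.35% did so, and over the 6531 genes whose every measured probe had a value on all 5 arrays, 2.66% did so. Cat stood highest of the 8 at a log2 fold of 0.32 and Prx6c lowest at -0.31. Of the 8 genes, 3 stood above 0 and 5 below, where 48.1% of all genes stood above 0. Their median log2 fold was -0.04, against -0.01 for all genes. At the lower threshold of 1.2-fold, 2 of the 8 genes passed, Cat and Prx6c, where 18.9% of all genes and 14.3% of those on all 5 arrays passed. With 8 genes, neither count separates the group from this background.

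**Figure D1:**
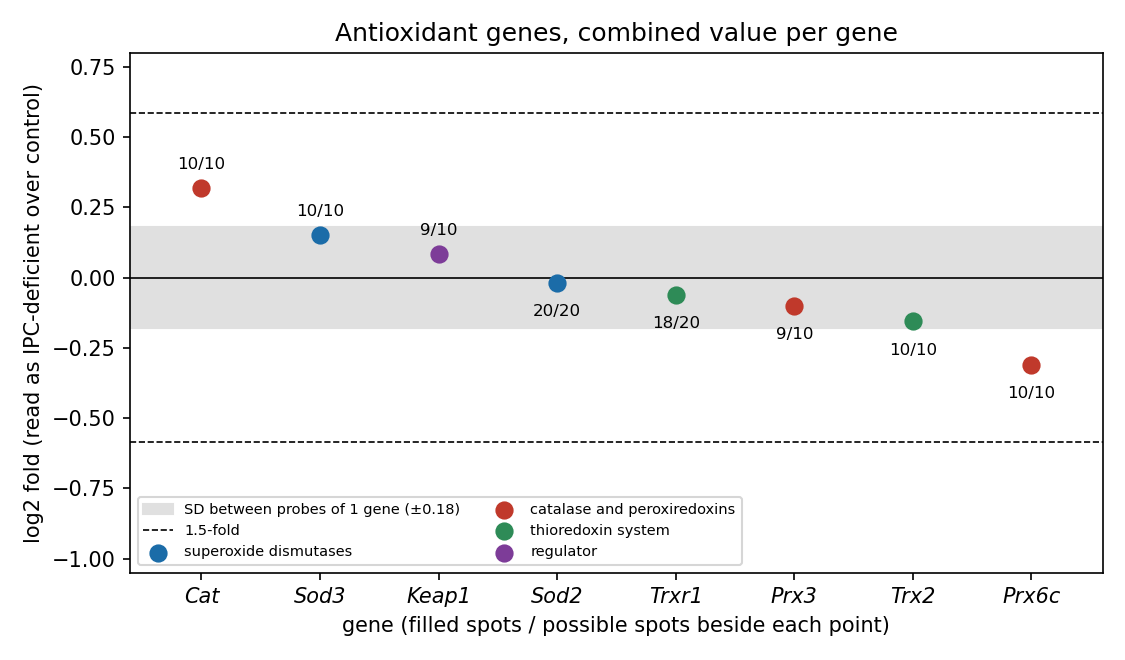
Log2 fold of each measured antioxidant gene (vertical axis, no unit), read as IPC-deficient over control, with genes ordered from highest to lowest on the horizontal axis and coloured by role. The numbers beside the points are filled spots over possible spots, the grey band is the SD between probes of a gene (0.18 either side of 0) and the dashed lines mark 1.5-fold. Cat at 0.32 and Prx6c at -0.31 lie outside the band, and the other 6 genes lie inside it. Of genes with every probe on every array, 33.4% lay at least as far from 0 as Trx2, which is inside the band. For Prx6c, outside the band, that share was 10.4%. The share of such genes outside the band lies between these values, so being outside does not by itself set Cat and Prx6c apart.

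The enzymes that dispose of superoxide were represented by Sod2 and Sod3. Sod2, the manganese superoxide dismutase of the mitochondrial matrix, had a log2 fold of -0.02, a 1.01-fold difference. Its probe was spotted at 2 places on the array, in duplicate at each, and all 20 of 20 possible spots had the same value. These 2 places count as one measurement, because the deposited value was common to both. Such identical values at separate places occurred for 87 of 1254 genes spotted at more than 1 place. Of the genes on all 5 arrays, 90.6% lay at least as far from 0 as Sod2, so its value was among those closest to no difference.

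Sod3, a copper and zinc superoxide dismutase of the extracellular type, had a log2 fold of 0.15 from 10 of 10 spots, 11.1% higher in IPC-deficient flies. This was smaller than the SD between probes, and 18.3% of genes on all 5 arrays stood higher. Sod3 exceeded Sod2 by 0.17 on the log2 scale, less than 0.25, the SD expected of a difference between 2 genes. Ccs, the chaperone that loads copper onto the cytosolic dismutase, stood at -0.14 from 20 spots with 1 shared value.

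Peroxide removal held both ends of the range. Cat, the peroxisomal enzyme that splits hydrogen peroxide into water and oxygen, had a fold of 1.25 from 10 of 10 spots, with both spot copies filled on each of the 5 arrays. Its log2 fold of 0.32 was 1.78 times the SD between probes. Of the genes on all 5 arrays, 6.11% stood higher than Cat and 9.66% stood at least as far from 0.

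Prx6c, a peroxiredoxin of the 1-Cys type once named Prx2540-2, had a log2 fold of -0.31 (1.24-fold), also from 10 of 10 spots. This was 1.73 times the SD between probes, and 3.90% of genes on all 5 arrays stood lower. Prx6b, a close relative of Prx6c also named Prx2540-1, had no listed probe. Cross-hybridisation of its transcript to the Prx6c probe was not tested. Prx3, the peroxiredoxin of mitochondria, stood at -0.10 from 9 of 10 spots, the missing one being on array 5, and lay within the SD between probes. Cat exceeded Prx6c by 0.63 and Prx3 by 0.42, both more than 0.25, which is 1 SD of a difference between 2 genes and not a limit. Cat and Prx6c are the extremes of the 8 genes, so any gap that includes one of them is a description only.

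The peroxiredoxins themselves did not lie on one side of 0. Together with Prx3 and Prx6c, 4 were measured. Prx1 stood at -0.02 from 8 spots and Prx6a, a second 1-Cys peroxiredoxin, at 0.24 from 9 spots. Prx6a exceeded Prx6c by 0.55, again more than 0.25, a pair picked after the values were seen. Prx4, of the secretory pathway, and Prx5 had no listed probe.

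In the thioredoxin system, Trx2, the general thioredoxin of the fly, had a log2 fold of -0.15 (1.11-fold) from 10 of 10 spots. This lay within the SD between probes, and 15.7% of genes on all 5 arrays stood lower. Trxr1, the thioredoxin reductase that recharges it, was the only one of the 8 genes with probes of different value. They gave -0.06 from 8 spots and -0.07 from 10 spots, and the gene value was -0.06. Their gap was under 0.01, against a median gap of 0.12 over the 532 genes with 2 different probes on all 5 arrays. Trxr2, the second reductase, stood at -0.02 from 9 spots.

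A further pair of thioredoxins is known from the germ line. Deadhead, encoded by dhd and needed in the egg to remodel sperm chromatin, stood at -0.07 from 10 spots. TrxT, a testis-specific thioredoxin, stood at -1.39, a 2.62-fold difference, but its probe had only 4 filled spots on 3 arrays. Male accessory gland transcripts lay on the same side, although all flies are labelled female. All 5 measured markers of that gland were below 0, at -0.42 to -1.32 with a median of -0.87, and 4 of them had no value on at least 1 array. Past 1.5-fold, 315 of 10124 genes were negative, but only 50 of 7082 with probes on all 5 arrays. Incomplete probes therefore often lay on this side. The markers are of the accessory gland and not of the testis. The part of male tissue in the value of TrxT was not tested.

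Keap1, the repressor of CncC, had a log2 fold of 0.09 from 9 of 10 spots and lay within the SD between probes. Its partner cnc, the gene of CncC, stood at 0.00 as the median of 3 probes on all 5 arrays, at -0.15, 0.00 and 0.08. The CncC dimer partner maf-S stood at 0.03, and Cul3, the ubiquitin ligase scaffold that Keap1 recruits, at -0.04 from probes at -0.14 and 0.06. Neither the repressor nor its target therefore stood beyond the SD between probes.

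Ordered from the highest to the lowest, the 8 genes ran Cat, Sod3, Keap1, Sod2, Trxr1, Prx3, Trx2 and Prx6c. None of the 7 gaps between neighbours in this order exceeded the SD between probes. The widest was 0.17, between Cat and Sod3, and the next was 0.16, between Trx2 and Prx6c.

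**Figure D2:**
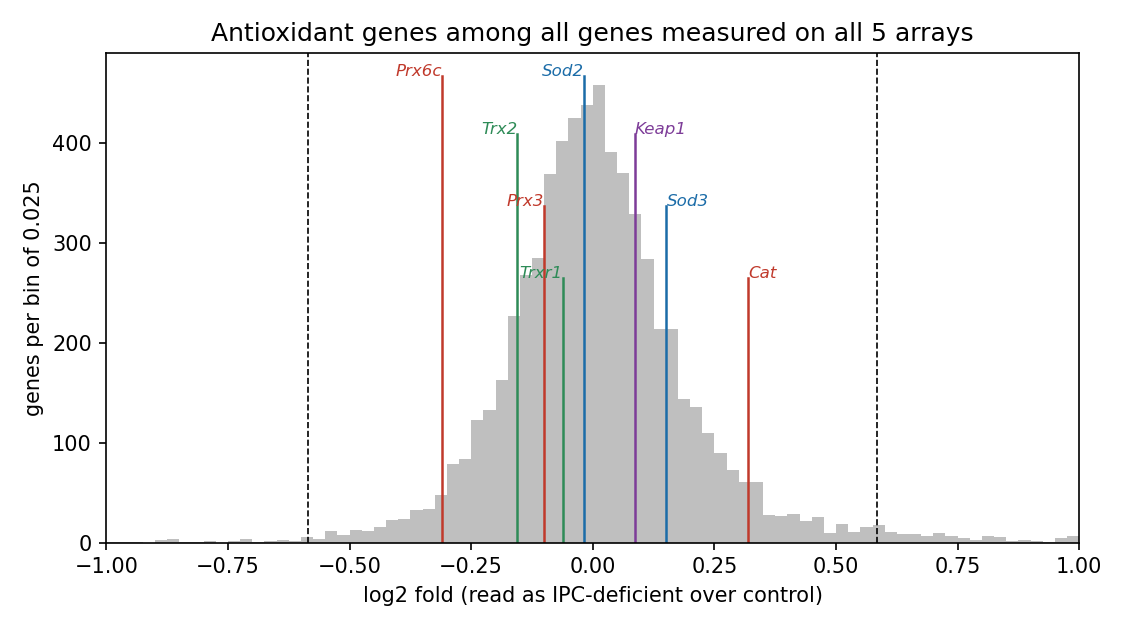
Distribution of log2 fold (horizontal axis, read as IPC-deficient over control) over genes whose probes all had values on 5 arrays, as the number of genes per bin (vertical axis). Grey bars hold the 6492 genes within 1 of 0, leaving 39 undrawn, coloured lines mark the 8 antioxidant genes (blue for superoxide dismutases, red for catalase and peroxiredoxins, green for the thioredoxin system, purple for Keap1), and dashed lines mark 1.5-fold. Cat and Prx6c lie on the shoulders of the distribution, with 6.11% of genes above Cat and 3.90% below Prx6c.

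The antioxidant probes were more often complete than the rest. The 10 probes filled 96 of 100 possible spots, and the least complete, 1 of the Trxr1 probes, filled 8 of 10. All 10 spots were filled for 7 of the 10 probes, against 41.9% of the 14972 probes with a value, with or without a gene symbol. The 2 places of Sod2, which share 1 value, are both among these 7. In this table incomplete probes lay beyond 1.5-fold more often. Of named probes with 1 to 4 filled spots, 18.4% did so, against 2.61% of those with 8 to 10. The probes printed around each antioxidant probe, up to 2 rows and columns away, had median log2 folds from -0.09 to 0.09. The highest median was around Sod3, itself at 0.15, and the lowest around 1 place of Sod2, itself at -0.02. The probes around Cat and those around Prx6c both had a median of -0.02.

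Around these genes, 10 lists of related genes held 67 measured genes, and 5 of them passed 1.5-fold, 1 above 0 and 4 below. That is 7.46% of them, beside the 5.35% of all genes. Of the 67 genes, 42 stood above 0 and 25 below, where 48.1% of all genes stood above 0. Among the 55 with every probe on all 5 arrays, 1 gene lay beyond 1.5-fold, or 1.82% beside the 2.66% of all such genes. The median log2 fold was 0.04 over the 67 and 0.05 over the 55, against -0.01 and 0.00 for all genes and all such genes.

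That gene was pug, which encodes a folate-dependent dehydrogenase of one-carbon metabolism, an NADPH-forming step, at -0.87 (1.83-fold) from 9 spots of 1 probe. The other 4 measured genes of the list of NADPH supply did not reach 1.5-fold. Idh, the NADP-dependent isocitrate dehydrogenase, stood at 0.29, with 3 probes from 0.26 to 0.49. Nmdmc, a mitochondrial folate dehydrogenase that mainly forms NADH and not NADPH, stood at 0.17. Pgd, of the pentose phosphate pathway, stood at 0.11 and Men, the malic enzyme, at -0.05. Zw, glucose-6-phosphate dehydrogenase, had no listed probe.

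The glutathione system stood close to 0 where it was well measured. The 2 subunits of the enzyme that begins glutathione synthesis, Gclc and Gclm, stood at 0.06 and 0.03, both from 10 spots. Gtpx, a glutathione peroxidase homologue long named PHGPx, stood at 0.12 and Ggt-1, a gamma-glutamyl transpeptidase, at 0.12. The glutaredoxin gene Grx1t lay beyond 1.5-fold at -2.01 (4.04-fold), but from 2 spots. Of the 8 measured genes of the list, 7 stood above 0, with a median of 0.07, where 48.1% of all genes stood above 0. Only 4 of the 8 had every probe on all 5 arrays, and Grx5, at 0.46, had 2 spots. The repair enzymes of oxidised methionine were divided, with SelR at -0.25 and MsrA at 0.17. The value of MsrA is uncertain, since 2 probes stood at 0.17 and a further one at -0.70.

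Genes that make peroxide, and the peroxisome in which catalase works, were divided too. Of 12 measured oxidases, 8 stood above 0 and 4 below, none beyond 1.5-fold, with a median of 0.10. The aldehyde oxidase AOX1 stood at 0.45 and the peroxisomal acyl-CoA oxidase Acox57D-p at 0.31, whereas the membrane oxidase Duox stood at -0.23 and ry, xanthine dehydrogenase, at -0.22. Of 9 measured genes of peroxisome biogenesis, 6 stood above 0 and 3 below, with a median of 0.06. Among them, Pex2 stood at -0.34, Pex5, the receptor that imports peroxisomal enzymes, at -0.23, Pex19 at 0.18 and Pex10 at 0.13. Pex7, a second import receptor, lay beyond 1.5-fold at 1.04 (2.06-fold) from 6 spots on 4 arrays. Neither the oxidases nor the peroxisome genes on all 5 arrays reached 1.5-fold.

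Genes that supply metal to the dismutases and heme to catalase stood near 0, with a median of 0.04 over 9 genes and none beyond 1.5-fold. The copper transporter gene Ctr1B stood at -0.14, while the heme synthesis genes Pbgs, Alas and FeCH stood at 0.16, 0.13 and 0.12. The 9 measured genes of CncC and stress regulation had a median of 0.00, with DJ-1alpha at 0.26, MTF-1, the metal-responsive transcription factor, at 0.15, dj-1beta at -0.13 and Roc1a, a ubiquitin ligase subunit, at -0.08. Among heme peroxidases, Irc, the immune-regulated catalase, stood at 0.14 and the chorion peroxidase Pxt at 0.06, both from 10 spots. The third, cysu, stood at -1.08 from 1 spot. In the list of other peroxiredoxins and thioredoxins, CG3719 stood at 0.17 and CG8517 at -0.07, and the median over 9 genes was -0.02 with TrxT alone beyond 1.5-fold.

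**Figure D3:**
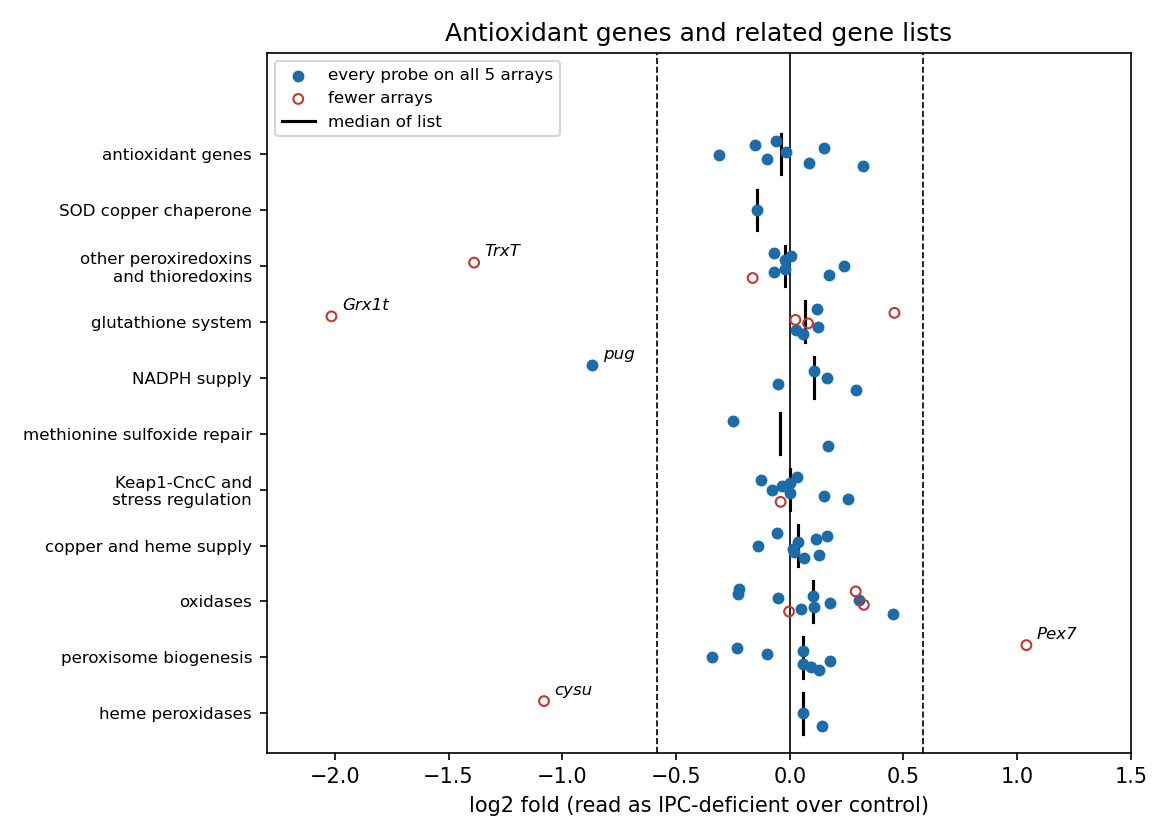
Log2 fold (horizontal axis, read as IPC-deficient over control) of each measured gene in the antioxidant group and in 10 related lists (rows). Filled points are genes with every probe on all 5 arrays, open points those with fewer, black bars list medians and dashed lines 1.5-fold, with genes beyond it named. The named points are Grx1t, TrxT, cysu and pug below 0 and Pex7 above it, and pug is the only filled one.

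Whole flies mix all tissues, so a smaller share of cells of one type and less RNA per cell cannot be told apart. All 6 measured midgut markers stood above 0, with a median of 0.79 and a range of 0.36 to 1.41. Of these, 4 were on all 5 arrays, at 0.66 to 1.41. Peritrophin-A, at 0.89, had 3 spots on 2 arrays, and Jon25Bii, at 0.36, had 8 spots on 4. Of the genes listed as flight muscle markers, the 4 on all 5 arrays stood above 0, at 0.34 to 1.17 with a median of 0.50. Of these 4, up, Mlc1 and Mlc2 are not limited to flight muscle. The gene up had 3 probes, of which 1 stood at -0.03 from 7 spots. Of the other 2 listed genes measured, TpnC41C stood at -0.07 from 4 spots. Act88F at -0.58 joined a probe at -2.76 from 4 spots with one at 1.60 from 10 spots. The 4 female fat body markers on all 5 arrays stood below 0, at -0.35 to -0.03 with a median of -0.13, and the fifth, Fbp1, stood at 0.56 from 3 spots. All 4 measured photoreceptor markers stood above 0 with a median of 0.54, 2 of them beyond 1.5-fold. One of the 4, chp at 0.38, had 6 spots on 4 arrays. The 4 measured neuron markers were above 0 too (median 0.17), and none passed 1.5-fold. Of them, elav, at 0.03, had 3 spots on 3 arrays. Genes listed as hemocyte markers were divided, with a median of 0.53 over 5. This was the value of vkg, a collagen gene not particular to hemocytes. The 3 on all 5 arrays, PPO1, PPO2 and vkg, stood above 0, at 0.53 to 0.72. The other 2 stood below 0, Hml at -0.56 from 2 spots and NimC1 at -0.11 from 3 spots. The 7 ovary markers, all on 5 arrays, went both ways, with 3 above 0 and 4 below and a range of -0.54 to 0.67. One Malpighian tubule marker was measured, Irk2 at 0.17. These shifts stand beside the values of Cat and Prx6c, and their part in them was not tested. The marker of the ablated cells that was measured, Ilp2, stood at 0.01 from 4 spots, which gives no check of the ablation.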

How the data were processed

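Total RNA of whole IPC-deficient and control females was measured on 5 two-colour arrays. The values deposited by the authors are a score, a signed fold change of size 1 or more (0 of 29507 filled features had a smaller one), negative for the opposite direction. Each array was scanned 3 times, and both spot copies and all hybridisations entered 1 normalisation, per the labels' design text. How background was corrected, how values were normalised and why cells are empty is not given in the material analysed. Of 27376 features filled on 2 or more arrays, 0 differed between them by more than 1e-05.

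Each value was turned into log2 of its size with its sign kept. The 2 spot copies formed 1 probe, so a probe had up to 10 spots. Symbols came from the array annotation of 2007, updated through Entrez identifiers or transcript accessions with a RefSeq gene table of Release 6. Coordinates are left out because the arrays name no genome build. Probes of a gene were joined by their median, those equal to 5 decimals counted once. The joining of probes was tested on simulated data in which all probes of a gene had the same value. It therefore says nothing of genes whose probes disagree. Members and lists were chosen with earlier results of these data known. Named were all members, in each list up to 4 genes furthest from 0 on all 5 arrays, genes beyond 1.5-fold, and genes of the same families or steps, the last chosen after their values were seen. CG10635, listed among thioredoxins in error, is a prefoldin gene and was left out. Python 3.11.15, numpy 2.4.6, pandas 2.3.3 and matplotlib 3.10.9 were used. Signal over background was not analysed, and the number of arrays limits the precision.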

Additional observations from a re-analysis of the deposited data

How the results depend on the processing

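The 8 antioxidant values moved by at most 0.005 on the log2 scale when each column was centred, when probes were limited to those on all 5 arrays or with at least 5 spots, and when probes were joined by their mean, by the probe with most spots or without merging equal values. Most of these settings could hardly move the values, so this is no sign of robustness. Every antioxidant probe was on all 5 arrays with at least 8 spots, so the 2 limits removed none of them. Only Trxr1 had probes of different value, so the ways of joining could differ for that gene alone. None of the 8 passed 1.5-fold under these settings or passed 2-fold, and 2 passed 1.2-fold. With the sign turned, Cat stood at -0.32 and Prx6c at 0.31. Of the related lists, 5 of 67 genes passed 1.5-fold, beside 5.35% of all genes, and 12 of 67 passed 1.2-fold, beside 18.9%. Using only probes on all 5 arrays, 1 of 56 passed 1.5-fold, and 2 of 62 did with at least 5 spots. Over all genes, 227 of 10124 were positive and 315 negative at 1.5-fold. Using only probes on all 5 arrays, the counts were 140 and 50 of 7082, and with at least 5 spots 179 and 110 of 8674. That split therefore depends on incomplete probes. Over the 10124 genes, the counts at 2-fold were 72 and 147, and at 1.2-fold 908 and 1002. Leaving out each array was not run, because every column carries the value combined over all arrays. No paired analysis was possible because the table holds no separate value per array. Few filled spots limit the values of TrxT, Grx1t and cysu.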
